A study of Mus musculus with 10 samples.

Results

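The genes described here write, copy, oxidise and remove methyl groups on cytosine in DNA, followed in mouse embryonic stem cells with mutations in Mbd3. They are the DNA methyltransferase genes Dnmt1, Dnmt3a, Dnmt3b and Dnmt3l, the Uhrf genes Uhrf1 and Uhrf2, the Tet genes Tet1, Tet2 and Tet3, and Tdg. The 10 genes were chosen by symbol, and 7 of them stood among the 8694 genes listed in any of the 4 deposited tables. Tet2, Dnmt3a and Tdg were in no table. The authors' tables hold the genes called in that mutant at an adjusted p under 0.05, and beside them 1 gene in the Mbd3ab KO table, 9 in the Mbd3abc KO table and 11 in the Mbd3cΔN-ab KO table with an adjusted p between 0.0501 and 0.0505. Where a table leaves a gene out, its level there is unknown, which does not show that it was unchanged.

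Ribosomal RNA was removed and the remaining RNA sequenced in 5 groups of E14 cells, a line of mouse embryonic stem cells grown on gelatin, with 2 libraries in each group. The mutant groups were Mbd3abc KO (genotype Mbd3abc -/-, mutated in exon 5 of Mbd3), Mbd3cΔN-ab KO (Mbd3cdeltaN; ab-/-, mutated in exon 2), Mbd3ab KO (Mbd3ab -/-, also exon 2) and Mbd3c KO (Mbd3c -/-, intron 2), all made with CRISPR/Cas9. Wild type E14 was the control, and the same wild type libraries served all 4 comparisons, which are therefore not independent. Mbd3 is a subunit of NuRD, a complex that combines nucleosome remodelling with histone deacetylation. The letters a, b and c stand for its isoforms. The libraries are described as biological replicates, and the number of clones behind each mutant line is not stated in the labels. The p-values measure only the spread between these libraries.

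In mammals, Dnmt3a and Dnmt3b place methyl groups on unmethylated CpG sites, and Dnmt3l, which has no catalytic activity, stimulates both. After replication Uhrf1 binds the hemimethylated site and recruits Dnmt1, which copies the mark onto the new strand. Tet enzymes oxidise methylcytosine to hydroxymethylcytosine and further products, and Tdg excises the most oxidised forms so that base excision repair can restore cytosine. Embryonic stem cells are known for high Tet1 and for expressing the de novo enzymes together with Dnmt3l.

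In Mbd3abc KO cells 7 of the 10 genes were called by the authors, in a table in which 52.1% of all genes tested were called. Dnmt1, Uhrf1, Dnmt3b and Dnmt3l were lower and Uhrf2, Tet1 and Tet3 were higher. Over all genes tested, 27.1% were called higher and 24.9% lower. In Mbd3cΔN-ab KO cells 4 of the 10 were called, against 41.5% of all genes tested: Uhrf1 and Dnmt3b were lower and Uhrf2 and Tet3 higher, where 21.1% of all genes were called higher and 20.4% lower. In Mbd3ab KO cells the authors called Tet3 alone of the 10, where 3.35% of all genes were called (2.05% higher), and in Mbd3c KO cells none of the 10, where 0.353% were called. Set against those backgrounds, 7 of 10 and 4 of 10 do not set these genes apart from the transcriptome. The mutant and wild type libraries did not overlap in any of the 12 values, and neither did they for any other called gene (100% of the called genes in each table), so this says nothing particular about the set. In bulk RNA such as this, fewer cells of a type and less RNA per cell cannot be told apart.

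Libraries differed in depth by 0.710 to 1.59 times the total of the first wild type library, where first and second are the order of the columns. In reads, a listed gene of the set had between 66 and 9757 per library, and Tet3 in the first wild type library had the fewest. Mbd3 itself had 7.70% of the wild type level in Mbd3abc KO, 17.9% in Mbd3cΔN-ab KO and 38.3% in Mbd3ab KO, and it was not listed in the Mbd3c KO table. Levels below are reads divided by the size factor of the library in its table, called normalized reads. The wild type values of a gene differ slightly between tables because each table was normalized on its own.

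Promoters are shown for the genes listed in both stronger mutants, so that the lower pair, Uhrf1 and Dnmt3b, can be set beside the higher pair, Uhrf2 and Tet3. The sequences are the 250 bases before the RefSeq start in build GRCm38.p6, 5′ to 3′ on the strand of the gene, with every CpG in capitals. They cover chr17:56303087-56303336 on the plus strand for Uhrf1, chr2:153649199-153649448 on the plus strand for Dnmt3b, chr19:30030263-30030512 on the plus strand for Uhrf2 and chr6:83441679-83441928 on the minus strand for Tet3.
Uhrf1: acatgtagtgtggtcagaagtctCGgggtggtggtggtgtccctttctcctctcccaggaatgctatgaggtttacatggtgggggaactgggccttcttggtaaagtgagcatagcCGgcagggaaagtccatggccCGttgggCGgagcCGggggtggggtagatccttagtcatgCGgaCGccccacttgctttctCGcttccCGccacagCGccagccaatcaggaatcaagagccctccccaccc
Dnmt3b: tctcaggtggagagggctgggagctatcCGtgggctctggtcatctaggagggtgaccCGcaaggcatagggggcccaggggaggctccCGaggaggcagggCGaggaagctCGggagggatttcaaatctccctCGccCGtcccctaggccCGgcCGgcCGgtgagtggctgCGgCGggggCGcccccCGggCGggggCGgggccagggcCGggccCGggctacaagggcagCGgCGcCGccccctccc
Uhrf2: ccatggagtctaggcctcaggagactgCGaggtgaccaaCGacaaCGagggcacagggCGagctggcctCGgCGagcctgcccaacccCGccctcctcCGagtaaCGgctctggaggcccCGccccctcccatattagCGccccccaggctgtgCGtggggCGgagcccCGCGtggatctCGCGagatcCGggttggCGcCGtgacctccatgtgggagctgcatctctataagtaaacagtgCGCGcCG
Tet3: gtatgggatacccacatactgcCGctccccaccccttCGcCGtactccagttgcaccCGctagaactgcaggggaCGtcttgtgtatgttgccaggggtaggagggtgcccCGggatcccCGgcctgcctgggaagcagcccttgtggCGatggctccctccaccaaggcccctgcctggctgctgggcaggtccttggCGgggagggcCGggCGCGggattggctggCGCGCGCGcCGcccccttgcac

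The windows of the lower pair had 10 (Uhrf1) and 21 (Dnmt3b) CpG sites and those of the higher pair 23 (Uhrf2) and 17 (Tet3), while the median over 32536 RefSeq promoters was 6, with quartiles at 2 and 16. Of the 7 listed genes 6 had a promoter in the RefSeq table that matched the listed start. The remaining ones, Dnmt3l with 4 and Dnmt1 with 2 CpG sites, both lower in Mbd3abc KO, held fewer. Each window lies before the start of the listed transcript, and whether these cells use that start was not tested. The GC box core GGGCGG, searched on both strands, occurred 3 times before Dnmt3b, 3 times before Uhrf2, 2 times before Dnmt3l and 1 time each before Uhrf1 and Tet3, against at least 1 match in 33.0% of all promoters. The CCAAT box occurred 4 times before Dnmt1 and 1 time each before Uhrf1 and Tet3, against 33.8% of all promoters. The E-box CACGTG stood before Dnmt3l alone of the 6 genes, against 6.04% of promoters. The E2F motif in the exact form TTTCCCGC was in none of the 6 windows, against 0.901%. Other forms of the E2F motif were not searched. These matches describe letters in a window and not binding.

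**Figure D1:**
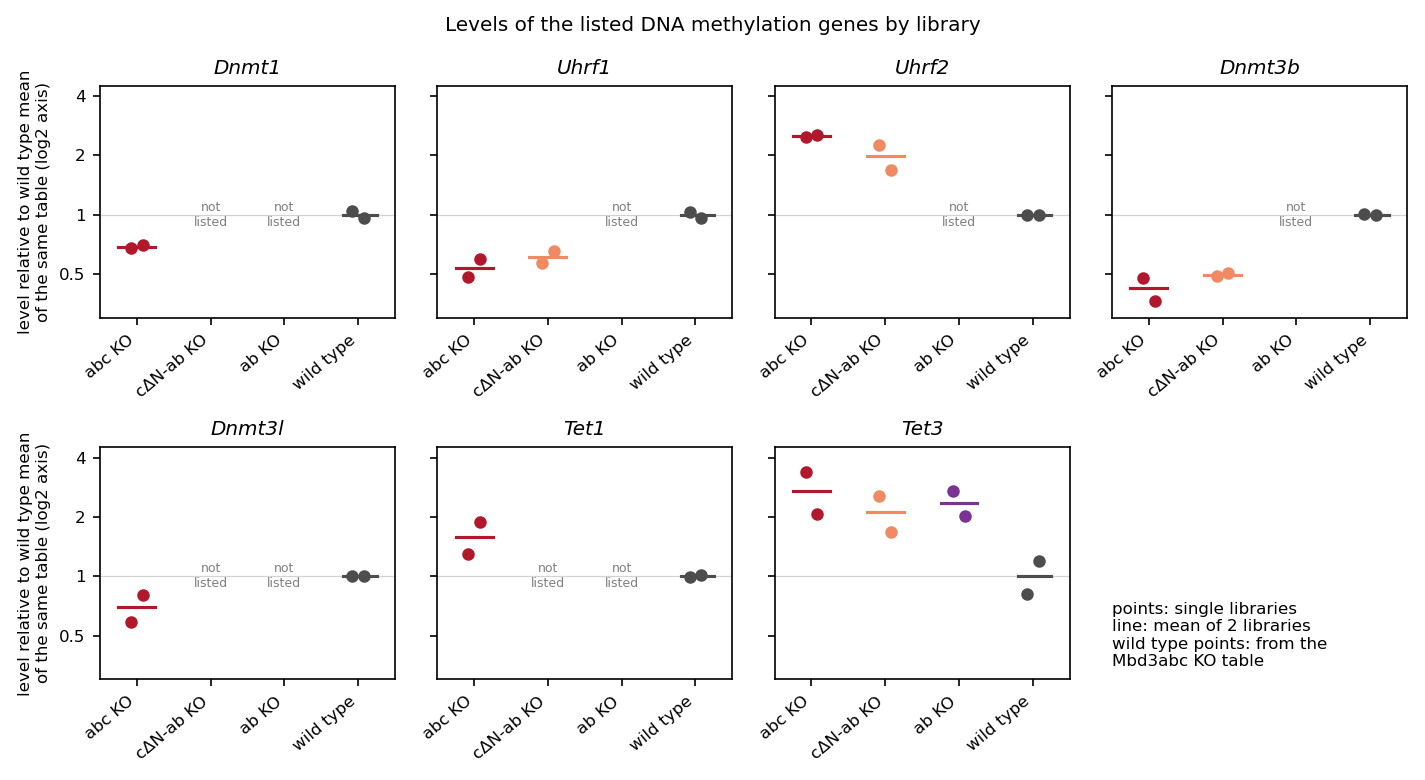
Level of each listed gene in single libraries (points) divided by the wild type mean of the same table, on a log2 axis, with a line at the mean of the 2 libraries, for Mbd3abc KO, Mbd3cΔN-ab KO, Mbd3ab KO and wild type; Mbd3c KO listed none of the genes. Dnmt1, Uhrf1, Dnmt3b and Dnmt3l lie below wild type and Uhrf2, Tet1 and Tet3 above it wherever they are listed, with no overlap.

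Among the genes of maintenance methylation, Uhrf1 fell in both stronger mutants. Uhrf1 (chr17:56303337-56323486, plus strand, mm10) had 3999 and 4922 normalized reads in Mbd3abc KO, against 8593 and 7958 in wild type. In the Mbd3cΔN-ab KO table it had 4491 and 5160 in the mutant, against 8155 and 7606 in wild type. Every mutant library lay well below both wild type libraries, and the mutant means were 1.86-fold lower in Mbd3abc KO and 1.63-fold lower in Mbd3cΔN-ab KO. The authors' deposited table gave log2 fold changes of -0.88 ± 0.17 (SE, adjusted p = 1.02e-06) for Mbd3abc KO and -0.70 ± 0.14 (adjusted p = 4.37e-06) for Mbd3cΔN-ab KO, both from DESeq2. In a DESeq2 refit without the first wild type library, the Mbd3cΔN-ab KO call was lost (adjusted p = 0.0772).

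Dnmt1, the enzyme that Uhrf1 recruits, fell less and was listed in Mbd3abc KO only. Dnmt1 (chr9:20907206-20959888, minus strand) had 4454 and 4619 normalized reads in Mbd3abc KO, against 6847 and 6326 in wild type. The groups did not overlap, and the mutant mean was 1.45-fold lower. The authors' deposited table gave -0.53 ± 0.11 on the log2 scale (SE, DESeq2 adjusted p = 2.23e-06). The call was lost in DESeq2 refits without the first (adjusted p = 0.253) or without the second wild type library (adjusted p = 0.123). Whether Dnmt1 differed between Mbd3abc KO and Mbd3cΔN-ab KO could not be tested, since the Mbd3cΔN-ab KO table does not list it.

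Uhrf2 went the other way from Uhrf1. It is a relative of Uhrf1 with the same arrangement of domains, and its protein binds hydroxymethylcytosine. Uhrf2 (chr19:30030513-30093724, plus strand) had 1119 and 1151 normalized reads in Mbd3abc KO, against 453 and 451 in wild type. In Mbd3cΔN-ab KO it had 976 and 730, against 430.1 and 431 in wild type. The Mbd3abc KO libraries lay close together and the Mbd3cΔN-ab KO libraries further apart, all above wild type, with means 2.51-fold and 1.98-fold higher. The authors' deposited table gave 1.32 ± 0.12 for Mbd3abc KO (SE, log2 scale, DESeq2 adjusted p = 1.37e-27) and 0.95 ± 0.21 for Mbd3cΔN-ab KO (adjusted p = 4.04e-05). In Mbd3abc KO this was the smallest adjusted p among the 7 genes.

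Of the de novo genes, Dnmt3b fell most. Dnmt3b (chr2:153649449-153687730, plus strand) had 2342 and 1787 normalized reads in Mbd3abc KO, against 4924 and 4848 in wild type. In Mbd3cΔN-ab KO it had 2268 and 2361, against 4673 and 4633 in wild type. Every mutant library lay far below the wild type libraries of its table, 2.37-fold lower in Mbd3abc KO and 2.01-fold lower in Mbd3cΔN-ab KO on the means. The authors' deposited table gave -1.22 ± 0.19 (SE, log2 scale, DESeq2 adjusted p = 1.69e-09) for Mbd3abc KO and -0.998 ± 0.099 (adjusted p = 5.05e-22) for Mbd3cΔN-ab KO.

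Dnmt3l, the stimulating partner without catalytic activity, fell less than Dnmt3b in Mbd3abc KO and was not listed in the other mutants. Dnmt3l (chr10:78049842-78063622, plus strand) had 2095 and 2872 normalized reads in Mbd3abc KO, against 3568 and 3554 in wild type. The second mutant library lay nearer to wild type than the first, the groups did not overlap, and the mutant mean was 1.43-fold lower. The authors' deposited table gave -0.51 ± 0.21 (SE, log2 scale, DESeq2 adjusted p = 0.0349). The call was lost in DESeq2 refits without the first mutant library (adjusted p = 0.0656), the first wild type library (0.284) or the second wild type library (0.27). Dnmt3a, the other de novo enzyme, was in no table.

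The Tet genes listed were both higher. Tet1 (chr10:62804570-62880014, minus strand), the main Tet gene of embryonic stem cells, had 5681 and 8253 normalized reads in Mbd3abc KO, against 4343 and 4437 in wild type. The mutant libraries differed from each other more than the first of them did from wild type, and the mean was 1.59-fold higher. The authors' deposited table gave 0.65 ± 0.24 (SE, log2 scale, DESeq2 adjusted p = 0.0144). The call was lost in DESeq2 refits without the first (adjusted p = 0.142) or the second wild type library (adjusted p = 0.116).

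Tet3 was higher in 3 mutants and had the fewest reads of the set. Tet3 (chr6:83362374-83441678, minus strand), which is known for oxidising the paternal genome in the mouse zygote, had 353 and 217 normalized reads in Mbd3abc KO, against 85.0 and 125 in wild type. In Mbd3cΔN-ab KO it had 254 and 168, against 80.6 and 119 in wild type, and in Mbd3ab KO 244 and 184, against 72.9 and 108 in wild type. The highest wild type library lay below the lowest mutant library in every table, and the means were 2.71-fold, 2.11-fold and 2.36-fold higher, in that order of mutants. The authors' deposited table gave log2 fold changes of 1.33 ± 0.36 (SE, DESeq2 adjusted p = 0.000786) for Mbd3abc KO, 0.95 ± 0.33 (adjusted p = 0.0117) for Mbd3cΔN-ab KO and 1.05 ± 0.30 (adjusted p = 0.0215) for Mbd3ab KO. In reads, Tet3 had 365 and 227 in Mbd3abc KO, 211 and 198 in Mbd3cΔN-ab KO and 299 and 122 in Mbd3ab KO, against 66 and 153 in wild type.

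The Tet3 calls rested on single libraries more than those of Dnmt3b or Uhrf2. In Mbd3abc KO the DESeq2 refit gave an adjusted p of 0.0779 without the first mutant library and 0.0755 without the first wild type library. In Mbd3cΔN-ab KO it gave 0.333 without the first mutant library, 0.418 without the first wild type library and 0.0882 without the second. In Mbd3ab KO no refit over the listed genes with all libraries passed 0.05: the adjusted p was 0.097 with DESeq2, 0.166 with edgeR and 0.18 with limma. There it was 0.955 without the first mutant library, 0.0491 without the second and 1 without either wild type library. The calls of Dnmt3b and Uhrf2 in both stronger mutants and of Uhrf1 in Mbd3abc KO held in each of these refits.

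**Figure D2:**
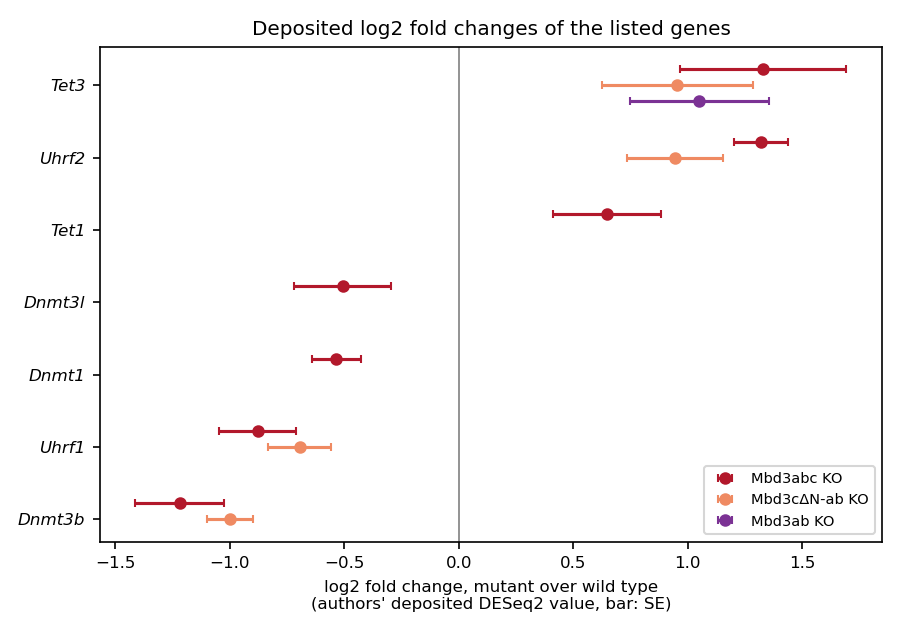
Log2 fold changes of mutant over wild type in the authors' deposited tables (points, with bars of 1 SE) for the listed genes in Mbd3abc KO, Mbd3cΔN-ab KO and Mbd3ab KO. Tet3 and Uhrf2 lie near or above 1 wherever listed, and Dnmt3b lies at -1.22 in Mbd3abc KO and -0.998 in Mbd3cΔN-ab KO.

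The order of the levels between genes was read per kilobase of transcript. In Mbd3abc KO, Dnmt3l averaged 1495 normalized reads per kilobase (libraries 1261 and 1729) and Uhrf1 1256 (1126 and 1386), so their ranges overlapped. Dnmt1 followed at 871 (855 and 887), then Tet1 at 495 (404 and 587) and Dnmt3b at 493 (427 and 559), whose ranges also overlapped. Uhrf2 averaged 323 (318 and 327) and Tet3 only 26.1 (32.4 and 19.9). In wild type the order was Uhrf1 at 2330 (2420 and 2241), Dnmt3l at 2144 (2148 and 2139), Dnmt1 at 1264 (1314 and 1214), Dnmt3b at 1167 (1176 and 1158), Tet1 at 312 (309 and 315), Uhrf2 at 128 (129 and 128) and Tet3 at 9.63 (7.80 and 11.5). No neighbours in the wild type order overlapped. Tet1 and Dnmt3b thus overlapped per length in Mbd3abc KO and lay far apart in wild type.

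**Figure D3:**
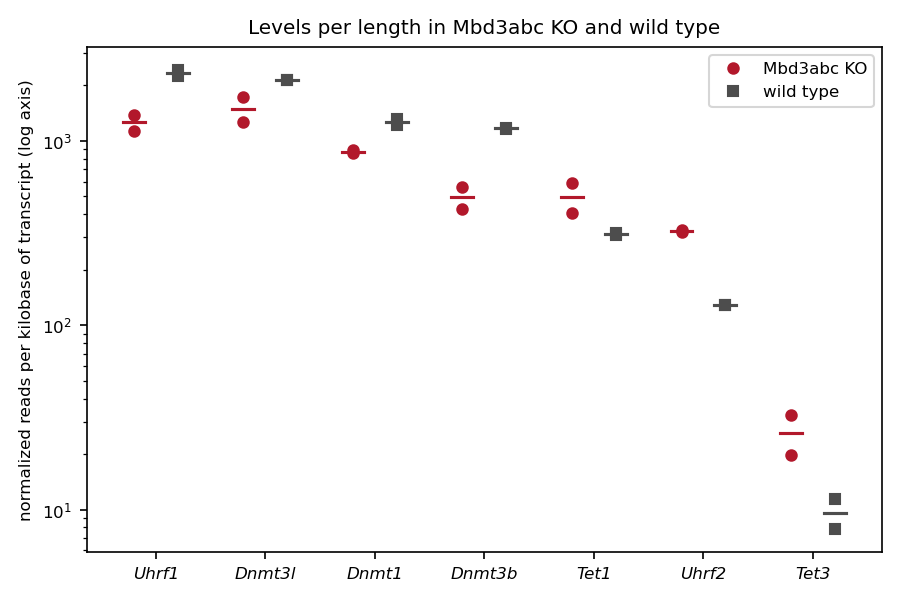
Normalized reads per kilobase of transcript, log axis, in single libraries of Mbd3abc KO (red circles) and wild type (grey squares), with lines at the means, from the Mbd3abc KO table. Genes run from the highest to the lowest wild type level, and the means of Mbd3abc KO and wild type are closest together for Dnmt3l and Dnmt1.

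Ratios of genes within a library do not depend on how libraries are scaled to each other. Per length, Uhrf1 stood at 3.54 and 4.24 times Uhrf2 in the Mbd3abc KO libraries and at 4.56 and 7.01 times in the Mbd3cΔN-ab KO libraries, against 18.8 and 17.5 times in wild type. Dnmt3b stood at 17.3 and 21.5 times Tet3 in Mbd3abc KO and at 23.2 and 36.6 times in Mbd3cΔN-ab KO, against 151 and 101 times in wild type. Both ratios were lower in every mutant library than in every wild type library. The ratio of Dnmt1 to Tet1 was 2.12 and 1.51 in Mbd3abc KO, against 4.26 and 3.85 in wild type. Dnmt3b also fell relative to Dnmt1, to 0.654 and 0.481 in Mbd3abc KO, against 0.895 and 0.954 in wild type. These ratios combine the calls already given and were not tested apart from them.

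Whether the mutants differed from each other was tested with edgeR on the recovered reads of genes listed in both tables. Between Mbd3abc KO and Mbd3cΔN-ab KO, 0 of the 4 shared genes were called, where 334 of 5413 genes were (6.17%). Limma and DESeq2 also called 0 of the 4, and the unadjusted edgeR p was 0.338 for Tet3, 0.118 for Uhrf2, 0.177 for Uhrf1 and 0.112 for Dnmt3b. The log2 difference, Mbd3abc KO minus Mbd3cΔN-ab KO, was 0.33 for Tet3 (adjusted p = 0.490), 0.30 for Uhrf2 (0.254), -0.22 for Uhrf1 (0.325) and -0.27 for Dnmt3b (0.247). The 95% intervals from limma ran from -0.45 to 1.07 for Tet3, from -0.078 to 0.72 for Uhrf2, from -0.56 to 0.11 for Uhrf1 and from -0.63 to 0.057 for Dnmt3b, so differences of these sizes were not detectable with 2 libraries a group. Each of the 4 point estimates had the larger departure from wild type in Mbd3abc KO, but without the first Mbd3abc KO library that of Tet3 was -0.065. Against Mbd3ab KO, Tet3 differed by 0.20 in Mbd3abc KO (adjusted p = 0.679, interval -0.56 to 0.96), where 25.4% of the 370 shared genes were called. It differed by -0.16 in Mbd3cΔN-ab KO (adjusted p = 0.832, interval -0.85 to 0.56), where edgeR called 0.0% of 353 shared genes, with 45 at an unadjusted p under 0.05, and limma 0 and DESeq2 7. The first of these Tet3 differences was -0.054 without the first Mbd3abc KO library, and the second 0.0085 without the first Mbd3ab KO library.

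The direction of change followed the GC content of the transcript across all called genes, and the set was read against that. With the called genes of Mbd3abc KO in 5 equal classes of GC content, 98.4% of the lowest class and 10.4% of the highest were higher in the mutant, and in Mbd3cΔN-ab KO 99.2% and 6.28%. Uhrf2 (47.2% GC) and Tet1 (43.7%) lay in the second lowest class, where 86.1% of called genes were higher in Mbd3abc KO. Dnmt1 (53.1%), Dnmt3l (53.5%), Dnmt3b (53.6%), Uhrf1 (53.7%) and Tet3 (53.4%) lay in the second highest, where 20.7% were. Thus 6 of the 7 genes in Mbd3abc KO and 3 of the 4 in Mbd3cΔN-ab KO changed the way most genes of their GC class did, and the exception in each was Tet3. Its log2 fold change of 1.33 in the authors' deposited table stood against a class median of -0.84 in Mbd3abc KO, and 0.95 against -0.71 in Mbd3cΔN-ab KO. Classes of transcript length gave another reading. With the called genes in 5 such classes, Tet3 lay in the longest, where most genes were higher in both mutants. Tet1, Uhrf2 and Dnmt3l also changed with most of their length class in Mbd3abc KO, and Dnmt1 changed against it. Dnmt3b and Uhrf1 changed against their length class in both mutants. In Mbd3cΔN-ab KO the length class of Uhrf2 was split almost evenly. The parts of GC content and length in these changes were not tested.

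**Figure D4:**
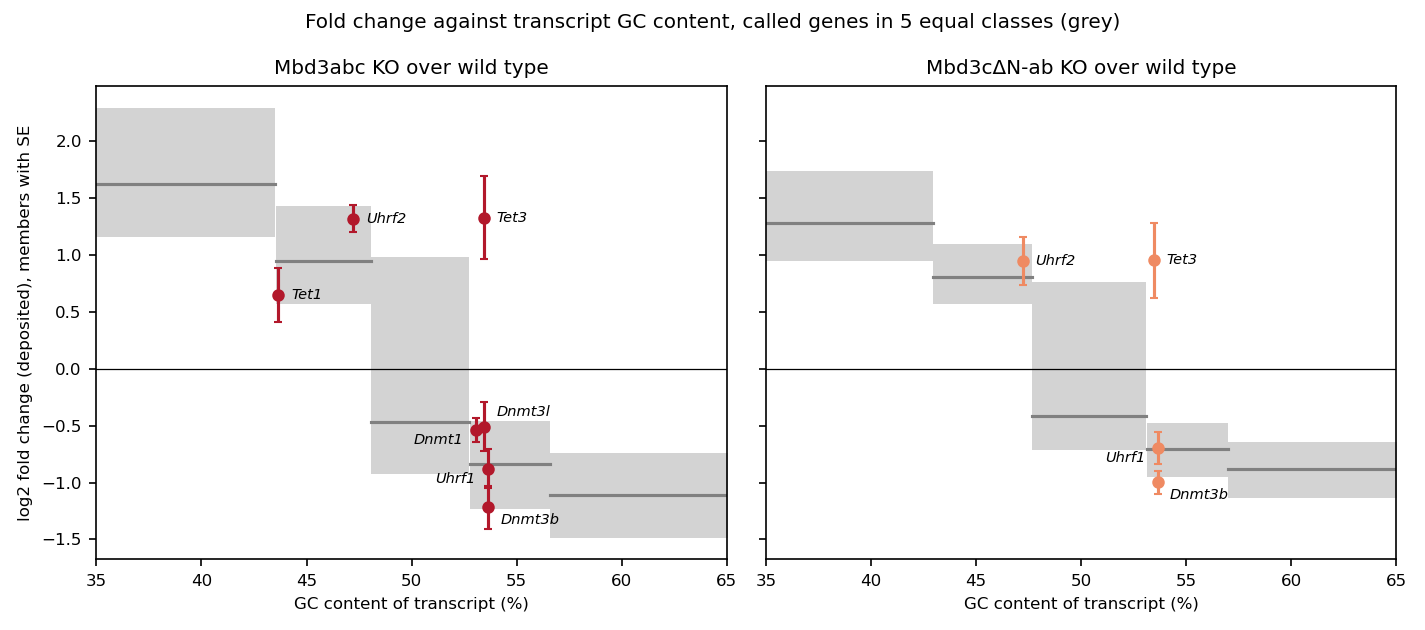
Log2 fold change over wild type in the authors' deposited tables (y axis) against GC content of the transcript in percent (x axis), for Mbd3abc KO and Mbd3cΔN-ab KO; grey boxes show the quartiles and grey lines the median of called genes in 5 equal GC classes, and points with bars of 1 SE are the methylation genes. Tet3 lies above its class in both panels, at 1.33 where the class median is -0.84 and at 0.95 where it is -0.71.

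Genes with the most similar pattern were ranked by Pearson's r of log2 levels over the 6 libraries of Mbd3abc KO, Mbd3cΔN-ab KO and wild type, among 2706 genes listed in both tables with levels above the median. For Tet3 they were Glud1 (r = 0.987), Pcgf3 (0.983) and Jmy (0.98), and 21 genes exceeded 0.95. For Uhrf2 they were Fbxl5, Sec24a and Pspc1, with 170 genes above 0.95. For Dnmt3b they were Wdr81, Sema4b and Sphk2 among 710 such genes, and for Uhrf1 Rabggta, Nol6 and Tfe3 among 1064. The libraries share wild type and fall into groups, so high values are common. Fewest genes ran alongside Tet3, which also had the fewest reads of the set, and the part of depth in this was not tested.

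Around the enzymes, 6 lists of genes of the same processes (129 genes) were counted. In Mbd3abc KO 44 were called higher and 45 lower, and in Mbd3cΔN-ab KO 35 higher and 37 lower, against 27.1% and 24.9%, and 21.1% and 20.4%, of all genes tested. In DESeq2 refits these 89 and 72 calls became 50 and 22 without the first wild type library and 45 and 23 without the second, and in Mbd3cΔN-ab KO 45 without the first mutant library. The authors called 7 of the 129 in Mbd3ab KO, 3 higher and 4 lower (2.05% and 1.3% of all genes), which became 1 without either wild type library and 3 without the first mutant library. They called 1 in Mbd3c KO, Sohlh2, which was higher (0.316% of all genes were) and which was lost in limma refits without either wild type library. The median log2 fold change of all called genes was 0.46 in Mbd3abc KO and 0.37 in Mbd3cΔN-ab KO. Genes of the lists and markers were not read against the classes of GC content or length. The part of these in their directions was not tested.

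**Figure D5:**
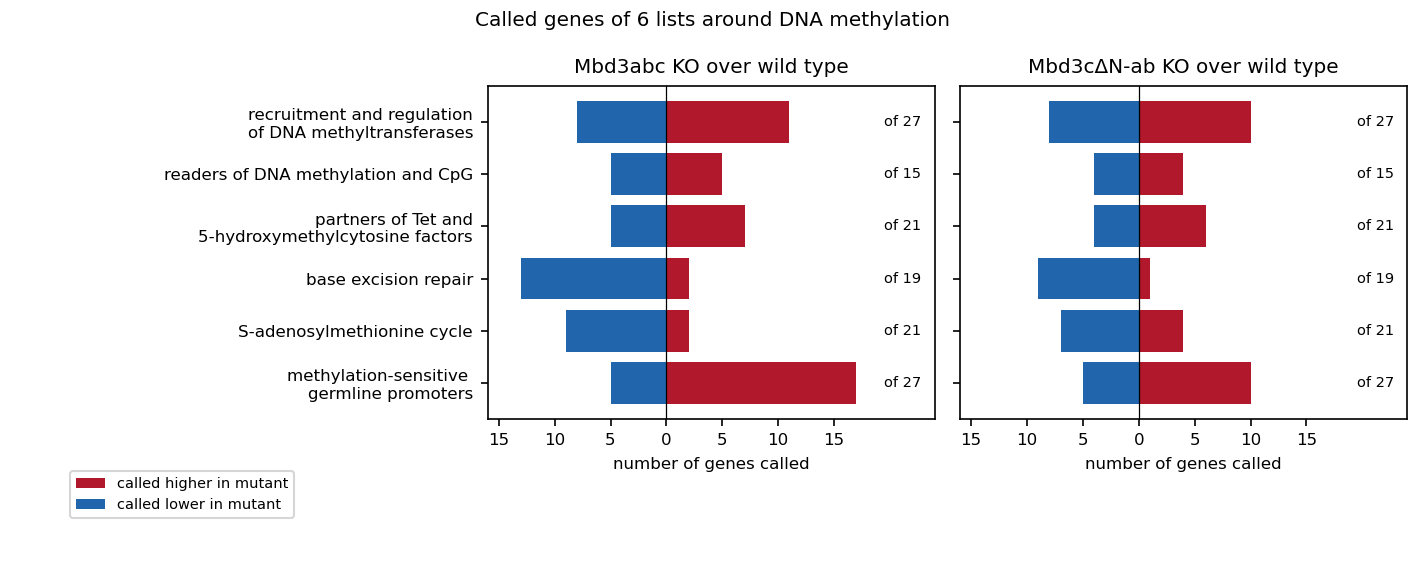
Number of genes of each list called higher (red, to the right) or lower (blue, to the left) in Mbd3abc KO and in Mbd3cΔN-ab KO, with the size of the list at the right. The base excision repair list, which includes Apobec2 and Apobec3, has 13 lower and 2 higher genes in Mbd3abc KO. Germline genes with methylation-sensitive promoters have 5 lower and 17 higher there.

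Factors that recruit or regulate DNA methyltransferases moved both ways. Of 27, 11 were called higher and 8 lower in Mbd3abc KO (median log2 fold change of those called 0.42). In Mbd3cΔN-ab KO 10 were called higher and 8 lower (0.43). These are 70.4% and 66.7% of the 27, against 52.1% and 41.5% of all genes tested. Hells, a remodeller needed for DNA methylation of repeats in mice, had 5420 and 6476 normalized reads in Mbd3abc KO, against 655 and 632 in wild type. It was 9.24-fold higher in Mbd3abc KO and 5.07-fold higher in Mbd3cΔN-ab KO. Atrx, a remodeller that acts on heterochromatin, was 15.3-fold and 7.08-fold higher in the same order. Setd2, the histone methyltransferase of transcribed gene bodies, was 2.36-fold higher in Mbd3abc KO and 2.03-fold higher in Mbd3cΔN-ab KO. Trim28, the corepressor of zinc finger proteins at imprinted loci, was 2.79-fold lower in Mbd3abc KO and 2.03-fold lower in Mbd3cΔN-ab KO. Ehmt2, a repressive histone methyltransferase, was 2.68-fold and 2.02-fold lower in the same order. Dppa3, which keeps Uhrf1 from chromatin in mouse oocytes, was lower in 3 mutants. It had 4.83 and 1.91 normalized reads in Mbd3abc KO, against 192 and 233 in wild type, a 63.0-fold difference that rests on 7 mutant reads. In Mbd3cΔN-ab KO it had 4.81 and 10.2, against 182 and 223 in wild type, and was 27.0-fold lower, and in Mbd3ab KO 23.7 and 4.52, against 165 and 203 in wild type, and was 13.0-fold lower. The call in Mbd3ab KO was lost in limma refits (adjusted p from 0.0779 to 0.106), in an edgeR refit (0.0974) and in DESeq2 refits without the first (0.0684) or the second wild type library (0.258), while those in the stronger mutants held in every refit.

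Readers of CpG were called in equal numbers each way, 5 and 5 of 15 in Mbd3abc KO (median 0.15) and 4 and 4 in Mbd3cΔN-ab KO (0.094). Against 52.1% and 41.5% of all genes tested, 66.7% and 53.3% of the readers were called. Zbtb33 and Mbd2, whose proteins bind methylated CpG, had the largest changes among them and are named after their values were seen. Zbtb33 was 5.71-fold higher and Mbd2 4.26-fold higher in Mbd3abc KO, and they were 3.58-fold and 2.41-fold higher in Mbd3cΔN-ab KO, where the Mbd2 call was lost in DESeq2 refits without any 1 of the 4 libraries (adjusted p from 0.0509 to 0.215). Lower ones were Cxxc5 by 2.18-fold, Mbd6 by 1.95-fold, Cxxc1 by 1.76-fold and Bend3 by 1.40-fold in Mbd3abc KO, and by 1.60-fold, 1.80-fold, 1.32-fold and 1.61-fold in Mbd3cΔN-ab KO. In Mbd3abc KO the DESeq2 refit lost Cxxc1 and Bend3 without either wild type library (adjusted p from 0.0617 to 0.371) and Mbd6 without the first (0.155). That in Mbd3cΔN-ab KO lost all 4 without either (adjusted p from 0.0636 to 0.745), and Cxxc1 also with all libraries (0.0981). Among partners of Tet and hydroxymethylcytosine factors, 7 of 21 were higher and 5 lower in Mbd3abc KO (median 0.63). In Mbd3cΔN-ab KO 6 were higher and 4 lower (0.62). These are 57.1% and 47.6% of the 21, against the same 52.1% and 41.5%. Hmces, a protein that binds abasic sites in single-stranded DNA, was 7.57-fold lower in Mbd3abc KO. It was 3.13-fold lower in Mbd3cΔN-ab KO, with 265 and 820 normalized reads in the mutant, against 1593 and 1804 in wild type, where the DESeq2 refit did not keep the call (adjusted p = 0.0772). Idh1, which makes the cosubstrate of the Tet enzymes, was 1.90-fold and 2.19-fold higher in Mbd3abc KO and Mbd3cΔN-ab KO. Rybp, a Polycomb subunit, was 1.81-fold and 1.66-fold higher in the same order. Its call in Mbd3cΔN-ab KO was lost in the DESeq2 refit without the first wild type library. Wdr76 was 1.52-fold higher in Mbd3abc KO and 1.68-fold higher in Mbd3cΔN-ab KO. Thap11, a transcription factor, was 1.63-fold lower in Mbd3abc KO and 1.67-fold lower in Mbd3cΔN-ab KO. DESeq2 refits lost the calls of Thap11 and Wdr76 in both mutants without either wild type library. That of Thap11 in Mbd3abc KO was also lost without the first mutant library.

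Of 19 genes listed under base excision repair, 13 were called lower and 2 higher in Mbd3abc KO. The median log2 fold change of those called was -1.06, and 24.9% of all genes tested were called lower. In Mbd3cΔN-ab KO 9 were called lower and 1 higher (-0.82), where 20.4% of all genes were called lower. The other 9 were not called. The list also takes in Apobec deaminase genes, with Apobec3 among those lower and Apobec2 among those higher in Mbd3abc KO. The repair genes Neil1, Neil3 and Mbd4 were counted in other lists. Neil1 was 3.13-fold and 2.67-fold lower in Mbd3abc KO and Mbd3cΔN-ab KO. Neil3 was 4.33-fold and 2.66-fold higher in the same order, and Mbd4 1.68-fold and 1.52-fold higher. The uracil glycosylase gene Ung was 2.39-fold lower in Mbd3abc KO and 2.32-fold lower in Mbd3cΔN-ab KO. The scaffold gene Xrcc1 was 2.48-fold and 2.25-fold lower in the same order, and the ligase genes Lig1 and Lig3 2.22-fold and 1.90-fold lower in Mbd3abc KO and 1.66-fold and 1.68-fold lower in Mbd3cΔN-ab KO. In Mbd3cΔN-ab KO the DESeq2 refit lost Lig3 without the first (adjusted p = 0.112) or the second wild type library (0.0745) and Lig1 without the second (0.1004).

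The S-adenosylmethionine cycle supplies the methyl group for the Dnmt enzymes. Of its 21 genes 9 were called lower and 2 higher in Mbd3abc KO (median -0.94), and 7 lower and 4 higher in Mbd3cΔN-ab KO (-0.79). In each mutant 52.4% of the 21 were called, against 52.1% of all genes tested in Mbd3abc KO and 41.5% in Mbd3cΔN-ab KO. Lower were 24.9% and 20.4% of all genes, in the same order. Tdh, the threonine dehydrogenase that feeds one-carbon metabolism in mouse embryonic stem cells, was 3.76-fold lower in Mbd3abc KO and 2.32-fold lower in Mbd3cΔN-ab KO. Srm, the spermidine synthase, was 3.01-fold and 2.17-fold lower in the same order. Shmt2, the mitochondrial serine hydroxymethyltransferase, was 3.21-fold lower in Mbd3abc KO and 1.75-fold lower in Mbd3cΔN-ab KO. Mthfd2, a mitochondrial folate enzyme gene, was 2.14-fold lower in Mbd3cΔN-ab KO. DESeq2 refits lost the Mthfd2 call without the first or the second wild type library.

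Germline genes whose promoters are known to be silenced by DNA methylation in mice were mostly higher in Mbd3abc KO, 17 of 27 against 5 lower (median of those called 1.86). In Mbd3cΔN-ab KO 10 were higher and 5 lower (0.98). Over all genes tested, 27.1% were called higher and 24.9% lower in Mbd3abc KO, and 21.1% and 20.4% in Mbd3cΔN-ab KO. Dazl, a germ cell RNA-binding protein gene, had 808 and 513 normalized reads in Mbd3abc KO, against 15.4 and 15.5 in wild type, and was 42.7-fold higher. In Mbd3cΔN-ab KO it was 13.4-fold higher, and in Mbd3ab KO 4.65-fold higher, where no refit with all libraries kept the call (adjusted p from 0.142 to 0.201). Sohlh2, a germ cell transcription factor gene, was higher in all 4 mutants: 7.60-fold in Mbd3abc KO, 5.95-fold in Mbd3cΔN-ab KO, 4.46-fold in Mbd3ab KO and 3.0-fold in Mbd3c KO. Its adjusted p in Mbd3c KO was 0.0472 in the authors' deposited table and 0.240 in a limma refit, and in Mbd3ab KO edgeR and limma refits gave 0.0698 and 0.0711. Other genes of the list moved the opposite way: Tex19.1, a germ cell gene, was 2.88-fold lower in Mbd3abc KO, 5.13-fold lower in Mbd3cΔN-ab KO and 1.96-fold lower in Mbd3ab KO, where no refit with all libraries kept the call (adjusted p from 0.0614 to 0.25), and Tuba3a 2.67-fold and Stag3, a cohesin gene, 2.57-fold lower in Mbd3abc KO. In Mbd3cΔN-ab KO Tuba3a was 1.47-fold lower and Stag3 1.65-fold lower, and DESeq2 refits lost both calls without the first mutant library, the first wild type library or the second (adjusted p from 0.0643 to 0.578). Reads of Tuba3a may be shared with its near-identical copy Tuba3b. DNA methylation itself was not measured.

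Markers of the cells were read beside these results. Of 10 embryonic stem cell markers, 4 were called lower and 2 higher in Mbd3abc KO and 5 lower in Mbd3cΔN-ab KO. Against 52.1% and 41.5% of all genes tested, 60% and 50% of the stem cell markers were called. Pou5f1, which defines these cells, had 2816 and 4647 normalized reads in Mbd3abc KO, against 10868 and 11648 in wild type, and was 3.02-fold lower in Mbd3abc KO and 2.04-fold lower in Mbd3cΔN-ab KO. Lin28a, Utf1 and Esrrb were lower in both, and Sox2 and Tdgf1 were higher in Mbd3abc KO. In Mbd3cΔN-ab KO the DESeq2 refit lost Lin28a and Esrrb without either wild type library (adjusted p from 0.0533 to 0.112). The summed level of the listed stem cell markers was 25528 and 30305 in Mbd3abc KO, against 43661 and 44340 in wild type, and 21934 and 27035 in Mbd3cΔN-ab KO, against 41264 and 41980 in wild type. Of 8 trophectoderm markers, Eomes and Krt7 were listed in Mbd3abc KO (summed level 544 and 445 in the mutant, 86.2 and 70.1 in wild type). In Mbd3cΔN-ab KO these and also Tfap2c and Hand1 were listed (443 and 647 in the mutant, 1227 and 1166 in wild type). Eomes was 6.47-fold higher in Mbd3abc KO and 3.38-fold higher in Mbd3cΔN-ab KO, and Krt7 5.07-fold and 4.91-fold higher. Krt7 had 17 wild type reads in all, and DESeq2 refits lost its call in both mutants whichever library was left out. Its log2 fold change in them ran from 1.20 to 1.94 in Mbd3abc KO and from 1.19 to 1.38 in Mbd3cΔN-ab KO. The lower sum in Mbd3cΔN-ab KO comes from Tfap2c, which had 162 and 395 normalized reads in the mutant, against 1135 and 1076 in wild type, and which is not listed in Mbd3abc KO. In Mbd3ab KO the authors called Eomes 2.54-fold higher and Tfap2c 2.18-fold lower, and edgeR and limma refits kept neither call (adjusted p from 0.056 to 0.184). Of 8 primitive endoderm markers, Amn and Dab2 were listed in Mbd3abc KO (155 and 185 in the mutant, 43.8 and 31.8 in wild type), and Amn alone in the other mutants. Amn was 4.14-fold higher in Mbd3abc KO, 2.75-fold higher in Mbd3cΔN-ab KO and 4.80-fold higher in Mbd3ab KO. The DESeq2 refit lost the Mbd3cΔN-ab KO call (adjusted p = 0.0778) and edgeR that in Mbd3ab KO (0.0861). In Mbd3abc KO, DESeq2 refits lost Amn without either wild type library or the first mutant library. They lost Dab2 there without the second wild type or the second mutant library. Of 8 fibroblast markers 2 were listed, and they moved opposite ways. Thy1 was 3.27-fold higher in Mbd3abc KO and 2.12-fold higher in Mbd3cΔN-ab KO, and Col1a1 1.87-fold and 2.57-fold lower, calls of Col1a1 that the DESeq2 refit did not keep (adjusted p = 0.259 and 0.114). The summed level of both was 574 and 590 in Mbd3abc KO, against 228 and 210 in wild type, and 339 and 385 in Mbd3cΔN-ab KO, against 216 and 200.3 in wild type. The Thy1 call in Mbd3cΔN-ab KO was lost in DESeq2 refits without either wild type library. In Mbd3abc KO 25% of the trophectoderm, of the primitive endoderm and of the fibroblast markers were called, against 52.1% of all genes tested. For Mbd3cΔN-ab KO the shares were 50%, 12.5% and 25% in that order, against 41.5%. In Mbd3ab KO 25% of the trophectoderm and 12.5% of the primitive endoderm markers were called, against 3.35% of all genes tested. No listed marker was at 0 in any library, and markers not listed have no value here. The part of these shifts in the changes of the methylation genes was not tested.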

How the data were processed

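The data are RNA-seq of ribosomal RNA depleted RNA, 2 libraries in each of 5 groups. TopHat2, HOMER and DESeq2 were used on build mm10, per the submitters' processing notes, which name no version. The libraries were strand-specific, per the labels' protocols. The authors deposited 4 tables, 1 per mutant, each holding part of the genes tested (443 for Mbd3ab KO, 38 for Mbd3c KO, 8141 for Mbd3abc KO and 6000 for Mbd3cΔN-ab KO). The library columns hold a signal that the authors deposited scaled to equal totals, and the tables also give log2 fold changes with SE, p-values and adjusted p-values of DESeq2, per the file headers. The deposited score, the Wald statistic, was not used. The mutant columns carry groups but no replicate numbers, while the wild type columns end in 1 and 2.

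Values were whole multiples of a step particular to each library (100% within 0.0055), so reads were recovered, and levels are reads divided by size factors fitted to the deposited mean. In the short Mbd3ab KO table this rests also on wild type reads identical to the Mbd3abc KO table for 370 of 370 shared genes, and the Mbd3c KO table was too short for it. Calls are the authors' at an adjusted p under 0.05. The number of genes tested (13201, 10759, 15622 and 14429, in the order above) follows from p and adjusted p together. Folds are ratios of group means, and the deposited log2 fold changes lie nearer to 0 for low genes (Tet3 in Mbd3abc KO 1.33, against 1.44 from the means). Contrasts between mutants used edgeR 4.0.16 (quasi-likelihood, median of ratios) on genes listed in both tables, which are selected genes. Refits of the listed genes used limma 3.58.1 (log2 of normalized reads + 1, or + 8), edgeR and DESeq2 1.42.0 in R 4.3.3, with p-values adjusted over that number of genes. Each library was left out in turn (the group left with 1 library takes its spread from the others), and the spread in every refit comes from called genes alone. The code was tested on simulated data. Contrasts with Mbd3ab KO and limma on the columns as deposited were added after the data were seen.

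The genes and the lists around them were chosen with earlier results of these data known. Of each list, up to 4 called genes per mutant with the largest deposited change and a level above the median of called genes are named, except 1 gene that is not reported here. GC content came from GENCODE M21 transcripts, matched for 99.7% of called genes, and promoters from RefSeq (GRCm38.p6). No exon of another annotated gene overlapped an exon of the 7 listed genes.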

Additional observations from a re-analysis of the deposited data

Results flagged for a closer look

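For 6 named genes of the lists and markers the change differed between the mutants in edgeR's test of Mbd3abc KO against Mbd3cΔN-ab KO. Of the pathway genes listed in both tables, 5 of 66 were called, against 6.17% of all 5413 genes. Dazl was higher in Mbd3abc KO by 1.64 on the log2 scale (adjusted p = 0.0197), Atrx by 1.07 (0.0294), the trophectoderm marker Eomes by 0.90 (0.0450) and Hells by 0.83 (0.0489). Shmt2 (-0.91, adjusted p = 0.0143) and Tuba3a (-0.89, adjusted p = 0.0275) were lower in Mbd3abc KO. With 2 libraries a group, the adjusted p of all 6 exceeded 0.05 without the first wild type library (0.0831 for Dazl, Atrx and Shmt2, 0.0892 for Tuba3a, 0.113 for Eomes and 0.131 for Hells) and without the second (0.0818 for Dazl, Atrx and Shmt2, 0.0890 for Tuba3a, 0.113 for Eomes and 0.1304 for Hells). That of Hells was 0.0529 with the deposited size factors joined through wild type, and that of Eomes 0.0557 with limma. Calls were also lost without a mutant library. Hells lost its call whichever mutant library was left out, and Eomes and Atrx without the first Mbd3abc KO library or either Mbd3cΔN-ab KO library. Dazl and Shmt2 lost theirs without the second Mbd3cΔN-ab KO library, and Tuba3a without that library or the first Mbd3abc KO library.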

How the results depend on the processing

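Against wild type, the methylation genes kept their direction under each alternative that was run, and 110 of 132 values kept their side of the threshold. The named genes of the lists and markers also kept their direction, and 838 of 986 values their call. The count of these genes called in Mbd3ab KO (1) was 0 at an adjusted p of 0.01, with limma (pseudocount 1, pseudocount 8 and equal totals), with edgeR with or without TMM and with the DESeq2 refit, and 0 to 1 with 1 library left out. A deposited log2 fold change of at least 1 in size left 3 in Mbd3abc KO (3 to 7 with 1 library left out) and 0 in Mbd3cΔN-ab KO (2 to 4). The listed pathway genes called in Mbd3ab KO (7) were 4 at 0.01, 0 with limma or edgeR, 3 with TMM, 3 with the DESeq2 refit and 1 to 5 with 1 library left out. In Mbd3c KO (1) they were 0 at 0.01 and with limma, and 0 to 1 with 1 library left out. The same minimum gave 53 in Mbd3abc KO (45 to 70 with 1 library left out) and 25 in Mbd3cΔN-ab KO (22 to 48). Between Mbd3abc KO and Mbd3cΔN-ab KO, 5 pathway genes became 0 at 0.01, 11 with DESeq2 and 0 to 16 with 1 library left out. The Tet3 difference changed sign with 1 library left out. Between Mbd3abc KO and Mbd3cΔN-ab KO it ran from -0.065 to 0.68, between Mbd3abc KO and Mbd3ab KO from -0.054 to 0.42 (the lower ends without the first Mbd3abc KO library), and between Mbd3cΔN-ab KO and Mbd3ab KO from -0.30 to 0.0085 (the upper end without the first Mbd3ab KO library). The cause was not tested. Relative to the deposited size factors, TMM over the listed genes shifted the median log2 fold change in Mbd3ab KO by -0.33 and equal totals by 0.11. No paired analysis was possible because the mutant columns carry no replicate numbers. Depth limits Tet3 most, with 66 reads in the first wild type library.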
